A study of Malus domestica with 5 samples.

Results

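miR828 and miR858 are miRNAs known for repressing MYB transcription factors, and they were followed here in apple (Malus domestica) through small RNA libraries of buds in the juvenile and the reproductive phase. Members were chosen by name, with earlier results of these data known. The names miR828a, miR828b and miR858 matched, which is 3 of the 207 named apple miRNAs and of 430043 features in the deposited table. miR828a and miR828b held identical counts in all 5 libraries and are described once, as miR828, so that 2 distinct sets of counts remain. Small RNAs of 19 to 24 nt were gel-purified from total RNA, ligated to adapters, copied into cDNA and amplified. The juvenile group has 2 libraries of juvenile phase buds, whose tissue label names a juvenile-like sucker from the stem base. The reproductive group has 3 libraries labelled as reproductive phase buds. No treatment or transgene is named for either group, and no cultivar, age or tree is given. Only the juvenile libraries carry the sucker label, so phase and position on the plant cannot be told apart. Nothing says that the libraries of a group came from separate trees, and the spread behind each p-value may be technical.

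An apple tree raised from seed does not flower while juvenile, and shoots at the base of an adult stem can keep juvenile traits. Plant miRNAs guide ARGONAUTE proteins to near-complementary sites in mRNAs, which are cut or translated less. miR828 and miR858 pair with separate sites in the conserved MYB-domain coding region of many MYB genes, among them activators of anthocyanin, proanthocyanidin and flavonol synthesis, the pigments and phenolics of apple skin, flowers and young leaves. miR828 is also known as a trigger of phased secondary siRNAs, cutting a trans-acting siRNA transcript and MYB mRNAs whose fragments are turned into further small RNAs. miR159 targets the GAMYB-like branch of the MYB genes, and its relative miR319 targets TCP genes of leaf growth. The table holds small RNAs only, so no MYB mRNA was measured.

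The sums of counts ran from 85087230 to 97283456 in the juvenile and from 122455352 to 140173167 in the reproductive libraries. Identical counts were frequent (274014 distinct sets), so a read appears to stand under several features, and these sums are not numbers of reads. The scaling of the libraries matters for everything below. Scaling by TMM (trimmed mean of M-values) over all features tested, used throughout unless another scaling is named, gave reproductive libraries an effective size 3.08-fold that of juvenile libraries, whereas the sums differed 1.41-fold. With TMM, edgeR's quasi-likelihood test called 45.3% of the 282619 features tested, 21.1% higher and 24.3% lower in the reproductive libraries, at an adjusted p of 0.05. With the sums alone the same test called 83.3% higher and 2.46% lower, and with TMM over the distinct named miRNAs alone 55.4% higher and 7.67% lower. The median log2 fold change of all features was 0.08 with TMM, 0.67 with TMM over named miRNAs and 1.19 with the sums.

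miR858 and miR828 stood far apart in counts. miR858 was a well-counted miRNA whose deposited counts were nearly a constant share of every library, and which was about 2-fold lower in reproductive buds once the libraries were scaled by TMM. miR828 was near the limit of detection in both phases, and no difference between the phases was detectable at this depth. Counts come from small RNAs of the same narrow size range, so they were compared between miRNAs without a length correction. Whether ligation and amplification recovered different miRNAs equally was not measured, so such comparisons are of counts and not of amounts in the bud.

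miR858 had 1911 and 1862 counts in juvenile replicates 1 and 2, and 3081, 2695 and 2755 counts in reproductive replicates 1, 2 and 3. All 3 reproductive libraries were higher on raw counts, and they were also the libraries with the larger sums. In CPM, here counts per 1000000 of all counts, miR858 stood at 19.6 and 21.9 in juvenile buds, against 22.0, 22.0 and 22.4 in reproductive buds. On that scale juvenile replicate 1 was lower than the rest, and juvenile replicate 2 lay just below the reproductive libraries. The groups did not overlap, with the reproductive libraries higher, which on that scale held for 88.1% of features tested.

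With TMM the order of the groups turned. Normalised counts of miR858 were 3249 and 4217 in juvenile buds, against 1852, 1827 and 1756 in reproductive buds. The reproductive libraries all lay below the juvenile ones without overlap, as in 33.0% of features tested. The means were 3733 ± 685 (SD, n = 2) and 1812 ± 50.02 (SD, n = 3), a 2.06-fold decrease. The log2 fold change, reproductive over juvenile, was -1.04 (SE 0.10, 95% interval -1.26 to -0.82, edgeR adjusted p = 6.13e-07), a call of lower that 24.3% of all features received. Across the other scalings and tests and with each library left out, adjusted p ran from 2.97e-18 to 0.246. Fewer cells that make miR858 and less miR858 per cell cannot be told apart in whole buds.

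**Figure D1:**
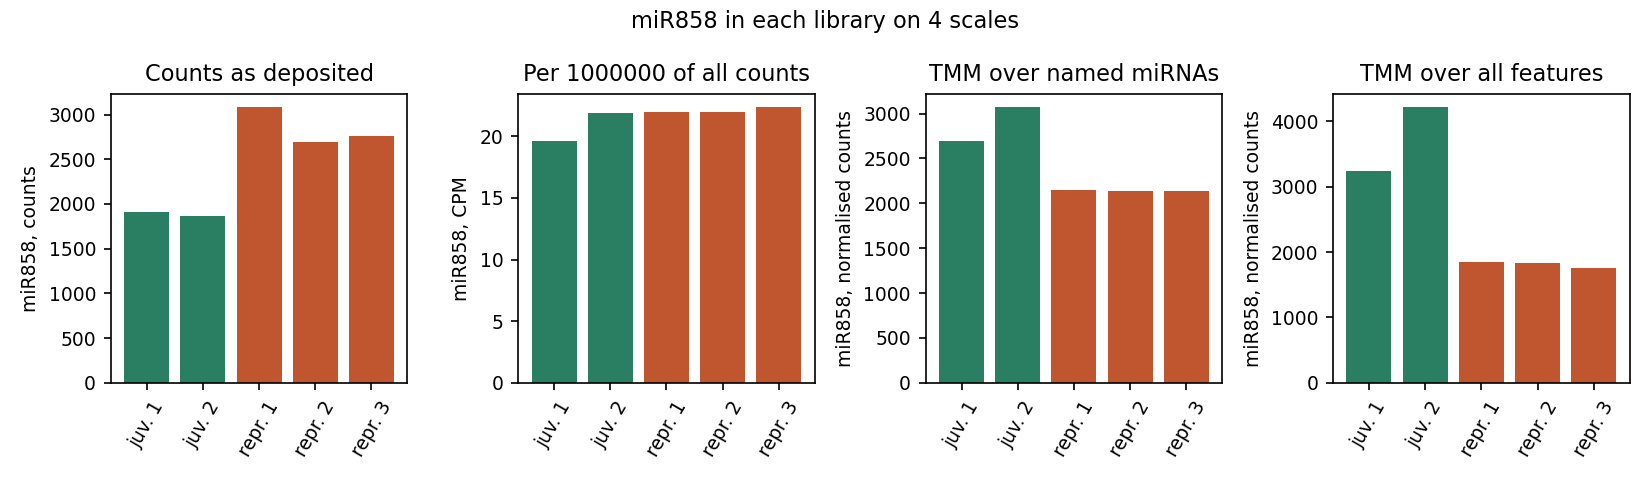
miR858 in the 2 juvenile (green) and 3 reproductive (orange) libraries on 4 scales, each bar 1 library: counts as deposited, CPM (counts per 1000000 of all counts), and normalised counts after TMM over named miRNAs and after TMM over all features. The reproductive bars are taller on raw counts, level with juvenile replicate 2 in CPM (21.9 against 22.0 to 22.4), and shorter after either TMM scaling.

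The size and the sign of the miR858 change therefore followed the scaling. The log2 fold change was -1.06 (SE 0.11) with DESeq2's size factors (edgeR adjusted p = 6.26e-07), where 24.9% of features were called lower, and -0.43 (SE 0.07) with TMM over the distinct named miRNAs alone (edgeR adjusted p = 0.000189), where 7.67% were. With that last scaling the normalised counts were 2698 and 3070.3 in juvenile buds, against 2145, 2138 and 2142 in reproductive buds, again without overlap, as in 10.9% of features. With the sums it was 0.09 (SE 0.07, edgeR adjusted p = 0.246), and no call was made. A change of scaling moves the log2 fold changes of all features by about the same amount, so the position of miR858 among them hardly depends on the scaling by construction. With TMM its log2 fold change minus the median over all features was -1.12, and minus the median of the 64 distinct named miRNAs tested -0.89. Under TMM, 6.91% of all features and 15 of the 64 distinct named miRNAs had a lower log2 fold change than miR858. These features are mostly repeats known by number, and 35.9% of the distinct named miRNAs were called lower under TMM, against 24.3% of all features.

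**Figure D2:**
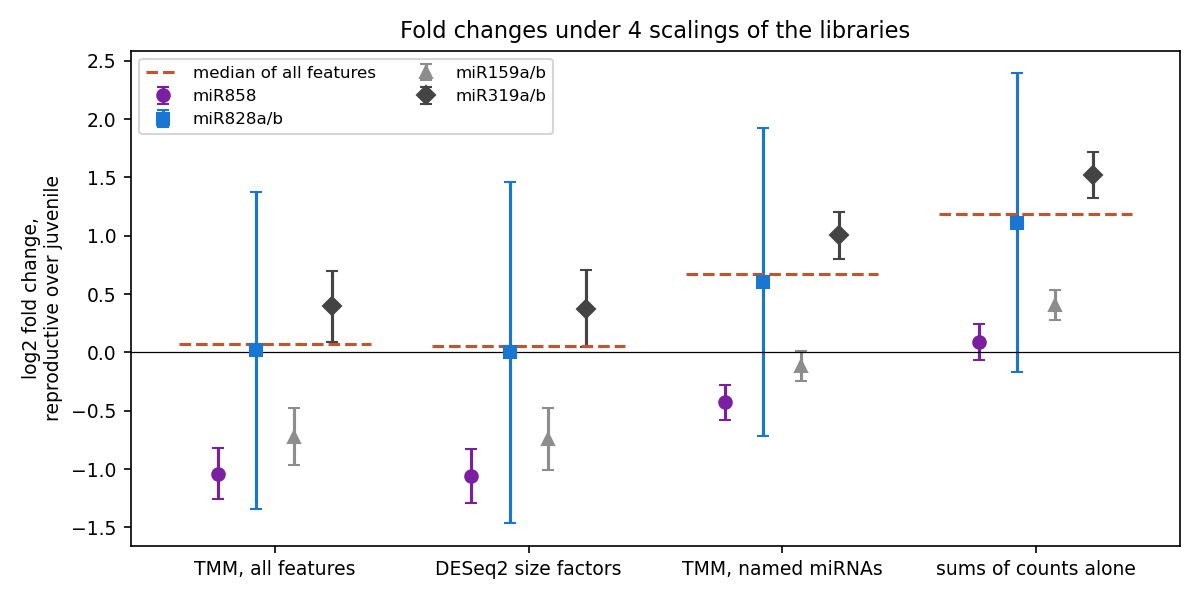
Log2 fold changes, reproductive over juvenile, of miR858, miR828, miR159a/b and miR319a/b under 4 scalings of the libraries, with 95% intervals from edgeR's quasi-likelihood fit (2 juvenile and 3 reproductive libraries), and the median of all features as a dashed line. A scaling moves all features alike, so the values shift together with the median; miR858 lies below zero in the first 3 scalings and at 0.09 with the sums, and the interval of miR828 spans zero in all 4 scalings.

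After TMM and on the sums, the reproductive libraries agreed closely with each other in miR858. The coefficient of variation over them was 2.76% after TMM and 0.948% after scaling on the sums, where counting error alone would give 1.80% to 1.93% for single libraries. The juvenile pair spread further, with a coefficient of variation of 18.3% after TMM and 7.63% on the sums. As a share of named miRNA counts the order was the reverse, with 5.35% in the juvenile pair and 11.7% over the reproductive libraries. TMM raised juvenile replicate 2 more than replicate 1, since its factors were 0.676 for replicate 1 and 0.581 for replicate 2, and 1.33, 1.35 and 1.42 in the reproductive libraries. The log2 fold change of miR858 was -1.22 when juvenile replicate 1 was left out and -0.84 when juvenile replicate 2 was. The call held in both cases.

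miR828 had 4 counts in each juvenile library and 10, 20 and 7 counts in reproductive replicates 1, 2 and 3. Reproductive replicate 2 held the most. The exact 95% Poisson intervals, which cover counting error only, were 1.09 to 10.2 for 4 counts, 12.2 to 30.9 for 20 counts, and 2.81 to 14.4 for 7 counts. These intervals are on raw counts of libraries that differ in size and do not compare the groups. After TMM the normalised counts were 6.80 and 9.06 in juvenile buds, against 6.01, 13.6 and 4.46 in reproductive buds, and the groups overlapped.

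**Figure D3:**
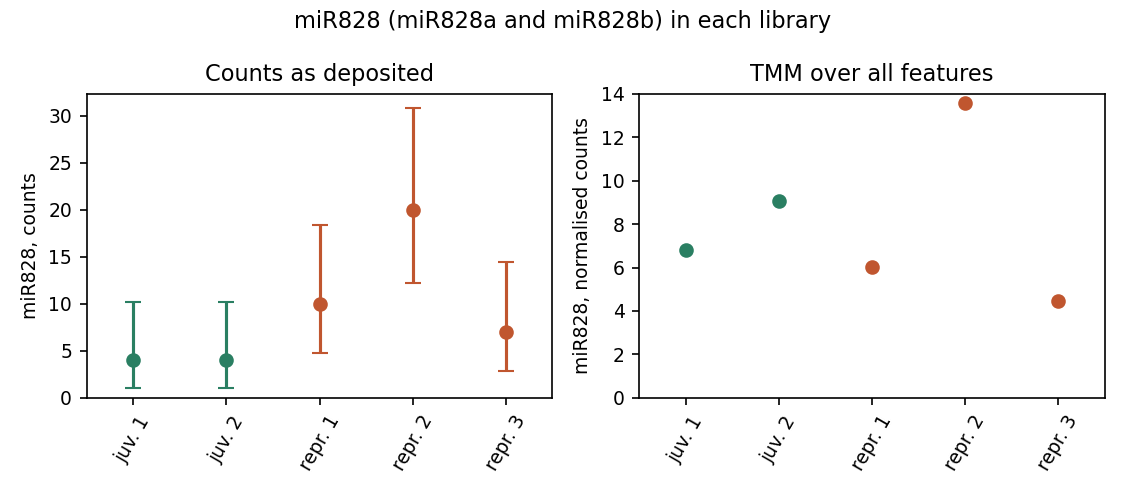
miR828 (miR828a and miR828b, identical counts) in 2 juvenile (green) and 3 reproductive (orange) libraries, as deposited counts with exact 95% Poisson intervals (left) and as TMM-normalised counts (right). Raw counts run from 4 to 20, and after scaling the reproductive libraries lie on both sides of the juvenile ones.

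The means were 7.93 ± 1.60 (SD, n = 2) and 8.01 ± 4.87 (SD, n = 3) normalised counts, and the log2 fold change was 0.02 ± 0.64 (SE; adjusted p = 0.984, edgeR). The 95% interval, -1.34 to 1.38 on the log2 scale, reaches from 0.395-fold to 2.60-fold, so these data allow a decrease as large as that of miR858 and an increase of similar size. With the sums alone it was 1.11 ± 0.60 (SE; adjusted p = 0.0946, edgeR), close to the median of all features in that fit, 1.19. miR828 met the count minimum of the test, 10 counts in 2 libraries, through reproductive libraries only, and without reproductive replicate 1 or 2 it was no longer tested.

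In the order of the 44 named families, with each distinct set of counts of a family added once, miR858 ranked 10 and 9 in the juvenile libraries and 11 in each reproductive library. Its neighbours in the reproductive libraries were the same in all 3. In reproductive replicate 3, miR167, which targets auxin response factors, stood just above with 2951 counts, and miR393, which targets auxin receptors, just below with 2301 counts, against 2755 for miR858. In juvenile replicate 1 the neighbours were miR171 with 2178 counts and miR167 with 970 counts. In juvenile replicate 2 they were miR396 with 2819 counts and miR171 with 1548 counts. The rank of miR858 moved by 1 or 2 places while its neighbours changed. miR828 ranked between 33 and 37 of the 44.

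**Figure D4:**
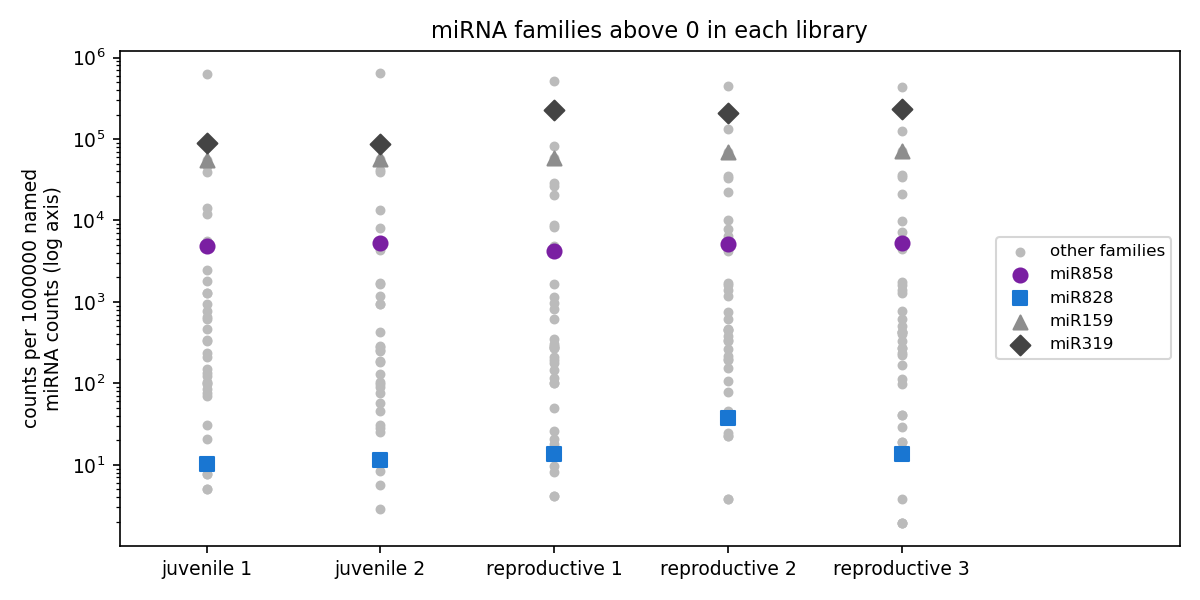
Every named miRNA family with a count above 0 in each library, in counts per 1000000 named miRNA counts on a log axis, with miR858, miR828, miR159 and miR319 marked and the other families in grey. miR858 stays between 4213 and 5287 on that scale and miR828 between 10.2 and 37.7. miR319 stands higher in the 3 reproductive libraries, as 80.4% of all features tested do on this scale.

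As a share of all named miRNA counts, which scales each library on its named miRNAs, miR858 made up 4885 and 5269 of every 1000000 counts in juvenile buds, against 4213, 5077 and 5287 in reproductive buds. The groups overlapped. The means were 5077 ± 272 (SD, n = 2) and 4859 ± 569.5 (SD, n = 3), and the difference was smaller than the spread between libraries (two-sided exact permutation p = 0.9). On the log2 scale it was -0.07, and 0.23 when every member of each family was counted in the total. The make-up of that total differed between groups. miR166 held 624900 and 642570 of every 1000000 counts in juvenile buds, against 516450, 450310 and 431060 in reproductive buds. miR319 held 90498 and 85802, against 228680, 211220 and 236340. TMM over the named miRNAs, which trims extreme changes, gave miR858 a log2 fold change of -0.43. The share of miR828 was 10.2 and 11.3 of every 1000000 counts in juvenile buds, against 13.7, 37.7 and 13.4 in reproductive buds. The groups did not overlap, with the reproductive libraries higher, as held for 80.4% of all features tested on this scale, with a two-sided exact permutation p of 0.3. The juvenile shares rest on 4 counts each.

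miR858 was then set against the other MYB and TCP regulators within each library. The quotient of miR858 over miR159 counts was 0.0874 and 0.0938 in juvenile buds, against 0.0715, 0.0738 and 0.0734 in reproductive buds. Every reproductive value was below both juvenile ones, by 1.24-fold on the geometric mean. For this and the other quotients, the share of features that separate in the same way was not computed. The separation can therefore not be called particular to the MYB and TCP regulators. The quotient of miR858 over miR319 was 0.0540 and 0.0614 in juvenile buds, against 0.0184, 0.0240 and 0.0224 in reproductive buds, 2.68-fold lower. Both comparisons gave a two-sided exact permutation p of 0.1, the smallest that the 10 splits of 2 against 3 libraries allow, and 0.3 after Benjamini-Hochberg adjustment over the 6 quotients and shares. Among the 4 families, miR858 made up 3.23% and 3.58% of the summed counts in juvenile buds and 1.44% to 1.78% in reproductive buds. The part of miR319 in these sums was 59.8% and 58.3% in juvenile buds and 74.1% to 78.4% in reproductive buds, so a lower miR858 part need not be a fall of miR858.

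**Figure D5:**
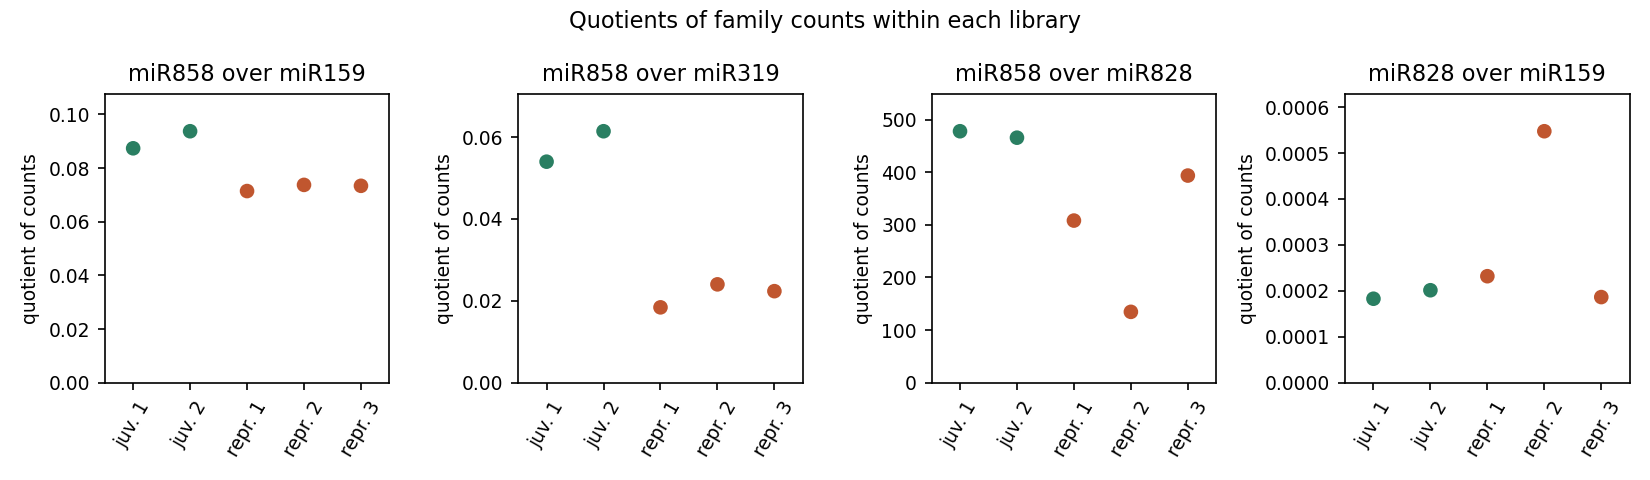
Quotients of family counts within each library (green, 2 juvenile; orange, 3 reproductive; each point is 1 library). miR858 over miR159 and over miR319 is lower in all 3 reproductive libraries; miR858 over miR828 ranges from 135 to 478 and, like miR828 over miR159, rests on 4 to 20 counts of miR828.

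miR858 outnumbered miR828 by 478-fold and 466-fold in juvenile buds and by 308-fold, 135-fold and 394-fold in reproductive buds. All reproductive quotients were lower, with a two-sided exact permutation p of 0.2 (0.4 adjusted). The difference on the log2 scale was -0.89 with all libraries and -0.44 without reproductive replicate 2, the library with 20 counts of miR828. The quotient of miR828 over miR159 overlapped between groups (two-sided exact permutation p = 0.6), and its log2 difference was 0.58 with all libraries and 0.12 without reproductive replicate 2.

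The neighbouring MYB and TCP regulators had 4 distinct sets of counts, all tested, of which 2 were higher and 2 lower with TMM, where 21.1% and 24.3% of all features were. With the sums 3 were higher and 1 lower (83.3% and 2.46% of all features), and with TMM over named miRNAs 2 were higher and 1 lower (55.4% and 7.67%). Their median log2 fold change was -0.16, against 0.08 over all features. miR159a, which shares its counts with miR159b, went from 41020.0 ± 5546 (SD, n = 2) to 24856 ± 1005 (SD, n = 3) normalised counts. Its log2 fold change was -0.72 ± 0.11 (SE; adjusted p = 9.27e-05, edgeR). It was called higher with the sums (0.41, edgeR adjusted p = 2.41e-05) and was not called with TMM over named miRNAs (-0.11, edgeR adjusted p = 0.113), a scaling under which miR858 kept its call. The rare miR159c fell with TMM (log2 fold change -2.27 ± 0.32 SE; adjusted p = 2.8e-05, edgeR) and also with the sums (-1.16, edgeR adjusted p = 0.00694). miR319a, which shares its counts with miR319b, rose with TMM (0.40, SE 0.14, edgeR adjusted p = 0.0336) and with the sums (1.52, edgeR adjusted p = 3.23e-08), and was not called with DESeq2's size factors (edgeR adjusted p = 0.0565). Tested as a family total with the same TMM library sizes, miR319 was not called either (0.40, SE 0.21, edgeR adjusted p = 0.0928). miR319c rose with TMM and with the sums (2.63 and 3.75). miR159 and miR319 are alike in sequence, and how reads that match both were counted is not given in the sources used here.

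Other families known to trigger phased siRNAs, the class to which miR828 belongs, were taken as a list: miR390, miR393, miR482, miR2118, miR3627 and miR7122. This list need not be complete, and miR482a-5p was left out of it. Of the 10 distinct sets of counts tested in these families, 3 were higher, 2 lower and 5 did not pass with TMM. So 5 of 10 were called where 45.3% of all features were. The median log2 fold change was 0.19, against 0.08 over all features. With the sums, 7 of the 10 were higher and 2 lower, where 83.3% and 2.46% of all features were. With TMM over named miRNAs, 6 were higher and 2 lower, where 55.4% and 7.67% of all features were. Their median log2 fold change was then 0.78, against 0.67 over all features. The lower ones with TMM were miR482b and miR482c, which target NBS-LRR resistance genes (log2 fold changes -1.54 and -1.42). Those higher were miR393c (1.00), miR3627c (0.81) and miR482d (1.33).

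Among the 24 other families with a mean of at least 100 counts, the one whose counts kept the steadiest quotient to miR858 over the 5 libraries was miR394, which represses an F-box gene of the shoot meristem. Its counts were 7.95 and 7.80 times those of miR858 in juvenile buds, against 6.32, 6.61 and 6.87 times in reproductive buds, an SD of the log2 quotient of 0.15. miR159 followed (SD 0.18), at 11.4 and 10.7 times in the juvenile and 13.6 to 13.99 times in the reproductive libraries. The third was miR168, which targets ARGONAUTE1 (SD 0.19), at 0.369 and 0.314 times in the juvenile and 0.268 to 0.278 times in the reproductive libraries. In all 3 cases the quotients of the groups did not overlap, with miR394 and miR168 lower against miR858 in the reproductive libraries and miR159 higher. The groups were also separated by the quotient to miR319, which stood at place 15 of the 24 with an SD of 0.79. Separation is therefore not particular to these 3 families. How many other families or features separate in this way was not computed. miR828, with a mean of 9 counts, was too rare for this comparison.

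In the RefSeq gene table of apple, assembly GDT2T_hap1, 2 of the 3 names had a gene. MIR828A and MIR828B lie on different chromosomes, and each overlaps a gene annotated as a long non-coding RNA, LOC139197486 for MIR828A and LOC139195377 for MIR828B. The nearest protein-coding genes on either side were LOC103439899 and LOC103439903 for MIR828A, and LOC103443979 and LOC103443966 for MIR828B. Because miR828a and miR828b had identical counts, reads could not be assigned to either locus.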

How the data were processed

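The authors deposited raw read counts, whole numbers for each feature. The submitters' processing notes name Bowtie 1.1.2. Which settings, genome build and treatment of reads with several matches were used is not given in the sources used here. Columns were matched to the sample titles. Groups were compared with edgeR 4.0.16 (R 4.3.3, glmQLFit and glmQLFTest, group as the only term) on all features that reached 10 counts in 2 or more libraries, with library sizes from the sums of counts times TMM factors and Benjamini-Hochberg adjustment over all 282619 features. The standard error is the log2 fold change divided by the square root of F, and intervals are at 95%. Normalised counts are counts divided by the library factors, after these were divided by their geometric mean. Family counts add each distinct set of counts once, with miR482a-5p kept apart from miR482. Quotients and shares within libraries were compared on the log2 scale by exact permutation of the libraries (two-sided), adjusted over 6. Alternatives were other scalings, DESeq2 1.42.0, no count minimum, distinct sets of counts, family totals, the replicate number as a block, and leaving out each library.

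All members are named, with miR159 and miR319 and the siRNA triggers as neighbouring lists; likeness to miR858 is the smallest SD of the log2 quotient of counts, for the first 3 families. The members and lists were chosen with earlier results of these data known. Libraries of a group differed beyond sampling noise in every pair (chi-square over features, per feature, from 1.85 to 6.11), so no library was a copy of another. The edgeR fit was tested on simulated data. Library sizes there followed the sums of counts and few features were changed, so that test does not bear on the choice of scaling. Sums of counts per library are not read numbers, so precision is given for single features only.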

Additional observations from a re-analysis of the deposited data

How the results depend on the processing

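The decrease of miR858 kept its direction and its call in 12 of 13 alternatives, with log2 fold changes from -1.22 to -0.84 when any 1 library was left out. Most of these alternatives kept TMM over all features, so the tally says little about the scaling. The log2 fold change shrank to -0.43 with TMM over named miRNAs and turned to 0.091 with the sums of counts alone. miR828 passed in none of the 10 alternatives that gave an adjusted p, and DESeq2's Wald test gave it none; its log2 fold change ran from -0.20 (without juvenile replicate 1) to 0.31 with 1 library left out. The number of features called, 128149, became 242282 with the sums, where 235325 were higher, and ran from 81012 (without juvenile replicate 2) to 135695 with 1 library left out. With TMM over named miRNAs 156631 features were higher and 21665 lower, and with DESeq2's Wald test 36375 and 59523. The miR858 share of named miRNA counts, with a log2 difference of -0.07, turned to 0.23 when every member was counted and ran from -0.13 to 0.030 (without reproductive replicate 1) with 1 library left out.

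The replicate numbers are shared between groups, but the labels tie nothing to them. Deviations of same-numbered libraries from their group means had correlations of -0.12 and -0.02. With 2 juvenile libraries these deviations are mirror images of each other, so the check can hardly show or exclude a pairing. With the replicate block, 102140 features were called, and the log2 fold change was -1.01 for miR858 and 0.25 for miR828. The block changed neither call. The 4 to 20 counts of miR828 limit every statement on it. In the quotients, leaving out 1 library moved the log2 difference of miR858 over miR159 between -0.36 and -0.26, of miR858 over miR319 between -1.52 and -1.31, and of miR858 over miR828 between -1.21 and -0.44.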
